A study of Mus musculus with 3 samples.

Results

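T cells in G2 and mitosis were picked out of 28452 tumor-infiltrating T cells by the RNA of genes that are switched on late in the cell cycle. For every cell, the UMIs (unique molecular identifiers, each marking 1 captured RNA molecule) of *Cdc20*, *Ccnb1*, *Ccnb2*, *Cenpf*, *Cenpe*, *Ube2c*, *Hmmr*, *Aspm*, *Knstrn* and *Cdkn3* were summed and divided by the cell's total UMIs. The 10% of pooled cells with the highest value, 2845 cells, are called G2/M cells here, and the rest are called other cells. The cells were live Thy1.1+CD8+ T cells sorted from subcutaneous B16F10 melanomas (a mouse melanoma line) in C57BL/6 recipients that were 5 to 6 weeks old and irradiated with 6 Gy. They descend from pmel-1 T cells, which carry a transgenic T cell receptor against the melanoma antigen gp100. The receptor that each cell used was not checked here. The T cells had been preconditioned with gp100 peptide and 10 nM of sIL-2 (super IL-2), of IL-2/21-Trikine (an IL-2-based molecule that also recruits the IL-21 receptor alpha chain) or of sIL-2 + IL-21, and were transferred on day 5 after tumor injection. Mice then received 4 doses of 2.5 μg at intervals of 48 hours, sIL-2 for the first and the last group and IL-2/21-Trikine for its own, so sIL-2 + IL-21 describes the culture and not the injections. Tumors were taken on day 18. Each treatment gave 1 library from 1 experiment, and the number of mice behind it was not found in the sources used here, so differences between treatments cannot be told apart from differences between libraries, and no test was possible.

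During G2 a cell with replicated DNA builds up cyclin B, which activates Cdk1 and opens mitosis. The spindle then captures the chromosomes at their kinetochores, and once all are attached Cdc20 switches on the anaphase-promoting complex, a ubiquitin ligase that destroys cyclin B and securin and so lets the chromosomes part. Many of the genes involved are repressed in resting cells by the DREAM complex and switched on late in the cycle by B-Myb and FoxM1, through promoter elements called CHR (TTTGAA or TTCGAA) and CCAAT boxes. CD8 T cells that have met antigen divide rapidly.

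The promoters of 5 marker genes of these cells are shown because they hold such sequences. Each line gives the 180 bases before the RefSeq start site (GRCm38.p6), read in the direction of the gene, with the CCAAT box and the CHR sequences, or their reverse complements, in capitals.
Cdc20: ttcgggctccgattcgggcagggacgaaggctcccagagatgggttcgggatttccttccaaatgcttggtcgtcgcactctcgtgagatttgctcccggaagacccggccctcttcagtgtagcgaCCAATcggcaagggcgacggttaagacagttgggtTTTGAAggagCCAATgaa
Ccnb1: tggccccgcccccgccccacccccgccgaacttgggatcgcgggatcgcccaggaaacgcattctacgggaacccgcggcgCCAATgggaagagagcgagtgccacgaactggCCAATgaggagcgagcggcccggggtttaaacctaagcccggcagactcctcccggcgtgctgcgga
Cenpf: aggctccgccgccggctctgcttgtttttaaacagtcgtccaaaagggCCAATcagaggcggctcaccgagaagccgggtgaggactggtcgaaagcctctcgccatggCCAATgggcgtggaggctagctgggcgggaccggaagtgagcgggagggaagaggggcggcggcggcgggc
Hmmr: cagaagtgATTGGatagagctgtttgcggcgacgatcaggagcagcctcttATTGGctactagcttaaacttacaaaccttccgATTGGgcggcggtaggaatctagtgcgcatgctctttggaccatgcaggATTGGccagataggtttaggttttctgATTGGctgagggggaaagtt
Aspm: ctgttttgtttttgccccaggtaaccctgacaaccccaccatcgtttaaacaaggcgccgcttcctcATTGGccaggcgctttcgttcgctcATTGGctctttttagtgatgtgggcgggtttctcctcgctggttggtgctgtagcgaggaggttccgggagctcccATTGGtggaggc

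*Cdc20*, the activator of the anaphase-promoting complex, lies on chr4:118437344-118437523 (minus strand) and held TTTGAA 18 bases before the start between CCAAT at 53 and 8 bases. *Ccnb1*, which encodes cyclin B1, lies on chr13:100786487-100786666 (minus strand) and held CCAAT at 99 and 67 bases before the start and neither CHR sequence in the window. *Cenpf*, a kinetochore protein, lies on chr1:189688087-189688266 (minus strand) and held CCAAT at 132 and 71 bases before the start, with TTTGAA at base 3 after it. *Hmmr*, a spindle protein, lies on chr11:40733438-40733617 (minus strand) and held 5 CCAAT boxes, all on the opposite strand, at 172, 129, 96, 47 and 20 bases before the start, with TTTGAA at base 9 after it. *Aspm*, which works at spindle poles, lies on chr1:139454593-139454772 (plus strand) and held 3 CCAAT boxes on the opposite strand at 113, 88 and 12 bases before the start, with TTTGAA at base 7 after it. Over the window from 250 bases before to 50 bases after the start, searched on both strands, TTTGAA or TTCGAA was found in 19.2% of all 32851 promoters of this length and CCAAT in 37.4%. A match is a description of the sequence and not a binding site.

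By treatment, 466 of 7494 cells were G2/M cells in the sIL-2 library, which is 6.22% (exact 95% binomial interval 5.68 to 6.79). In the IL-2/21-Trikine library they were 1105 of 11524 cells, 9.59% (9.06 to 10.1). In the sIL-2 + IL-21 library they were 1274 of 9434 cells, 13.5% (12.8 to 14.2). The share in the IL-2/21-Trikine library was therefore 1.54 times that in the sIL-2 library (1.39 to 1.71, 95% interval from a normal approximation on the log scale) and 0.710 times that in the sIL-2 + IL-21 library (0.658 to 0.766). The intervals of the 3 shares do not overlap, but they cover counting error only and hold no spread between mice or libraries. Thinning every cell to 2000 UMIs gave 6.39%, 9.24% and 13.8%, listed as above. Among cells with at least 2000 and under 5000 UMIs the order was another one, at 7.04% for IL-2/21-Trikine, 5.58% for sIL-2 and 3.87% in the sIL-2 + IL-21 library, and the sIL-2 interval (2.92 to 9.55) held both other values. Among cells with 20000 UMIs or more, the shares were 16.9% in the sIL-2 library, 26.5% in the IL-2/21-Trikine library and 24.7% in the sIL-2 + IL-21 library, and the intervals of the latter pair overlapped (24.7 to 28.4 and 23.2 to 26.3).

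**Figure D1:**
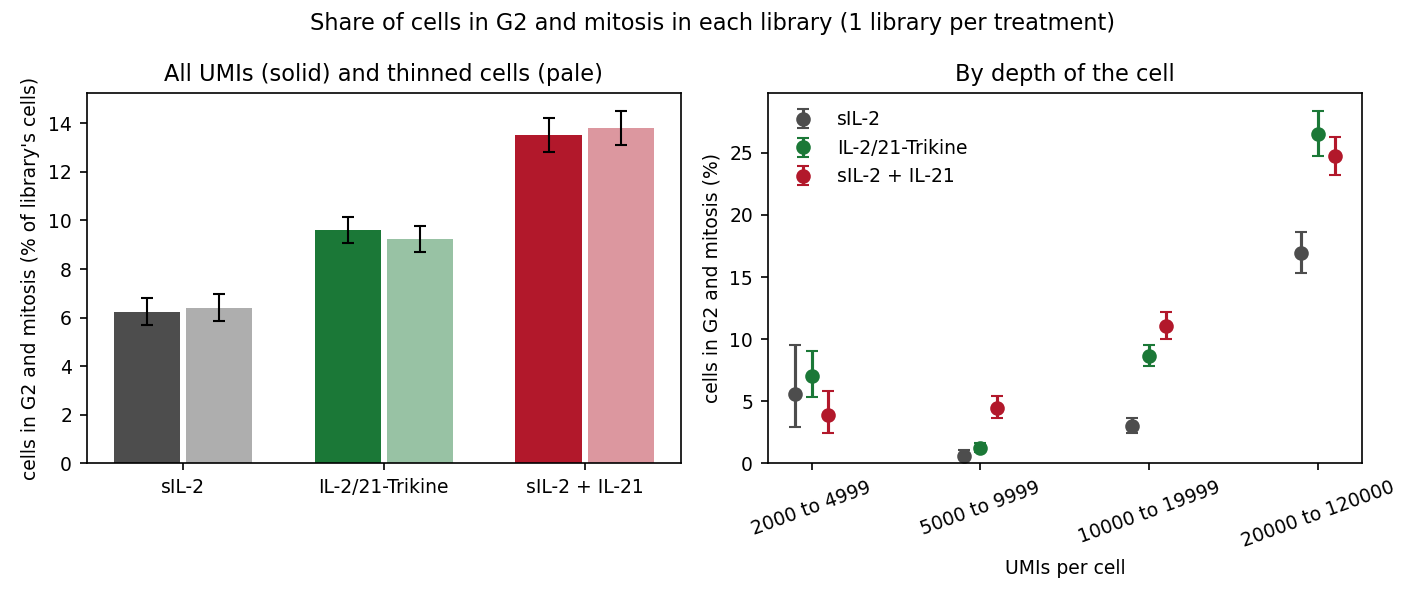
Percentage of each library's cells that were G2/M cells. Left, bars of the share for each treatment with all UMIs (solid) and after thinning every cell to 2000 UMIs (pale); right, the share by UMIs per cell; error bars are exact 95% binomial intervals. The share is 6.22% in the sIL-2 library, 9.59% in the IL-2/21-Trikine library and 13.5% in the sIL-2 + IL-21 library, and from 5000 UMIs upward cells of greater depth hold more G2/M cells in every library.

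The G2/M cells held more RNA molecules than other cells. Their median UMI number was 29295 in the sIL-2 library, against 12743.5 in other cells, a ratio of 2.30. It was 21106 against 10957 in the IL-2/21-Trikine library (1.93) and 22687 against 13386 in the sIL-2 + IL-21 library (1.69). They also held more genes per cell, with medians of 5228.5, 4375 and 4578 for the libraries in this order, against 3301, 2924 and 3325 in other cells. G2/M cells thus held 11.5%, 15.3% and 19.1% of all UMIs of their libraries. Cells in S phase, taken as the 10% of pooled cells with the highest UMI share of 43 replication genes and without the G2/M cells, were about as deep, with medians of 28720, 20423.5 and 23339 UMIs. A pair of cells caught in 1 droplet also has many UMIs, and the doublet caller Scrublet marked only 3 cells, so it did not work here. By its score, 11.4%, 7.78% and 8.95% of G2/M cells were among the 6% of each library most like doublets, against 5.65%, 5.81% and 5.54% of other cells. Without those cells the shares were 5.96%, 9.70% and 13.6%.

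The score itself chose the cells, so its genes are described without a test. The lowest score of a G2/M cell and the highest of another cell were both 12.53 UMIs per 10000, and 241 G2/M cells and 319 other cells lay within 10% of that value. At the other end, 1136 G2/M cells had more than 2 times the threshold. *Ube2c*, the ubiquitin-conjugating enzyme of the anaphase-promoting complex, gave 34.3%, 33.4% and 32.7% of the score UMIs, where the values of the sIL-2 library come first, those of the IL-2/21-Trikine library second and those of the sIL-2 + IL-21 library last, as in the series of 3 values that follow without names. *Cenpf* gave a further 13.5%, 13.9% and 12.5%. The score did not rest on a single gene: a G2/M cell had UMIs of a median of 9 of the 10 genes, and 96.9% of G2/M cells had at least 5 of them, against 12.7% of other cells. Of other cells, 49.1% had no UMI of any. The library totals of *Cdc20* were concentrated in G2/M cells, which held 73.2%, 71.4% and 64.1% of its UMIs.

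Of 5479 genes with a pooled level of at least 20 CPM (the gene's UMIs per 1000000 UMIs of the cells) in G2/M or other cells of every library, score genes left out, 327 (5.97%) were higher in G2/M cells in all 3 libraries by a log2 ratio of 0.5 or more, and 63 (1.15%) were lower by as much. The ratio was taken within a library after adding 1 CPM, which understates the change of low genes. Since cells were chosen on this contrast, these counts describe the cells and carry no test. The counts on gene lists that follow stand beside these shares of all genes, 5.97% and 1.15%. Of the 327 higher genes, 130 were on lists of cell cycle genes, 3 on other lists and 194 on none of the lists used here. TTTGAA or TTCGAA lay in 47.2% of the 318 promoters found for 269 of these genes, against 15.2% of the 5634 promoters found for 4446 measured genes, and in 17.5% of the 63 promoters found for 49 of the lower genes. For CCAAT the values were 61.3%, 37.4% and 28.6%. Both elements together were found in 31.8% of promoters of higher genes, 6.60% of those of measured genes and 6.35% of those of lower genes. These shares are a description of chosen genes, several of which have more than 1 promoter.

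*Plk1*, the kinase that drives entry into mitosis and centrosome maturation, led the higher genes. Its level in G2/M cells was 100.2 CPM in the sIL-2 library, 83.9 CPM in the IL-2/21-Trikine library and 82.2 CPM in the sIL-2 + IL-21 library, against 4.05, 6.75 and 10.1 CPM in other cells. The log2 ratios were 4.33, 3.45 and 2.91. One score threshold chose the cells of all libraries and *Plk1* rises with the score, so nothing is read from how near its levels in G2/M cells are to each other. *Aurka*, the kinase of the spindle poles, had log2 ratios of 3.53, 3.08 and 2.54, and *Nek2*, a centrosomal kinase, had 3.72, 3.13 and 2.55. *Ccna2*, the cyclin of S phase and G2, stood at 186, 181 and 171 CPM in G2/M cells against 14.4, 26.8 and 34.8 CPM in other cells. *Cdk1*, the catalytic partner of cyclin B, stood at 281, 263 and 234 CPM against 25.2, 46.7 and 55.0 CPM. Of 18 kinases, cyclins and their regulators, 14 were measured, 13 were higher and only *Lin54*, a subunit of DREAM, was neither. The median log2 ratio of the 14 was 2.70 in the sIL-2 library, 2.06 in the IL-2/21-Trikine library and 1.86 in the sIL-2 + IL-21 library, beside -0.00, 0.01 and 0.02 for all genes measured.

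Genes for the machinery of chromosome segregation were higher almost without exception. All 6 genes of the chromosomal passenger complex and its partners were higher, with *Birc5* (survivin) at 559, 573 and 600 CPM in G2/M cells against 47.8, 84.4 and 136 CPM in other cells. *Aurkb*, the kinase of this complex, had log2 ratios of 3.04, 2.20 and 1.94. Of 24 kinetochore and centromere genes measured of 31, 23 were higher, the exception being *Cenpq*. *Cenpa*, the histone that marks centromeres, had 658, 626 and 574 CPM against 157, 144 and 184 CPM. *Sgo2a*, which protects cohesion at centromeres, had log2 ratios of 3.64, 2.71 and 2.32. Of 8 genes of the spindle checkpoint, which holds anaphase back until all chromosomes are attached, 7 were higher, led by *Bub1b* (3.28, 2.43 and 2.22), and *Mad2l1bp*, which silences the checkpoint, was not.

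Of 24 spindle and motor genes measured of 28, 23 were higher and *Numa1* was not. *Tpx2*, which activates Aurora A and nucleates microtubules, stood at 301, 284 and 268 CPM in G2/M cells against 22.4, 37.4 and 51.4 CPM in other cells. *Nusap1*, a microtubule bundler, had log2 ratios of 3.69, 2.76 and 2.56, and *Kif2c*, a kinesin that dismantles microtubules at kinetochores, had 3.82, 2.94 and 2.46. Cytokinesis, the cleavage of the cell, was represented by 12 measured genes of 13, of which 11 were higher and *Cntrl* was not. *Prc1*, which bundles the central spindle, had 3.67, 2.96 and 2.56, and *Kif20a*, a kinesin of the central spindle, had 3.76, 2.89 and 2.43. *Kif14* followed with 3.61, 2.65 and 2.39.

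Chromosome condensation and chromatin genes were higher in 25 of 26 measured. *Top2a*, the topoisomerase that untangles sister chromatids, stood at 943, 1066 and 849 CPM against 126, 228 and 225 CPM, and *Mki67*, which coats mitotic chromosomes, at 631, 593 and 541 CPM against 65.0, 105 and 124 CPM. The exception was *Pttg1*, which encodes securin, the inhibitor of separase. Its levels in G2/M cells were 105, 109 and 120 CPM, close to 90.3, 92.6 and 97.6 CPM in other cells, with log2 ratios of 0.22, 0.23 and 0.30. Of 15 genes of the anaphase-promoting complex measured, the 4 that were higher were *Fzr1*, *Fbxo5*, *Ube2s* and *Anapc15*, the first 3 being a coactivator, an inhibitor and a ubiquitin-conjugating enzyme of the complex, while the other 11, all subunits of the ligase like *Anapc15*, were neither higher nor lower. *Fzr1* had log2 ratios of 1.67, 1.51 and 1.34.

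*Pimreg*, a mitotic regulator, had log2 ratios of 4.27, 3.46 and 2.85. Several leading genes were on no list. *Prr11* had 4.01, 3.27 and 2.83, from 2.00, 3.08 and 3.96 CPM in other cells to 47.3, 38.2 and 34.3 CPM. *Arhgap19*, a GTPase activator for RhoA, had 3.73, 3.17 and 2.66. *Mxd3* and *Parpbp*, also on no list, and the spindle genes *Ckap2l* and *Kif22* were also among the leading genes, with log2 ratios of at least 2.20 in every library.

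**Figure D2:**
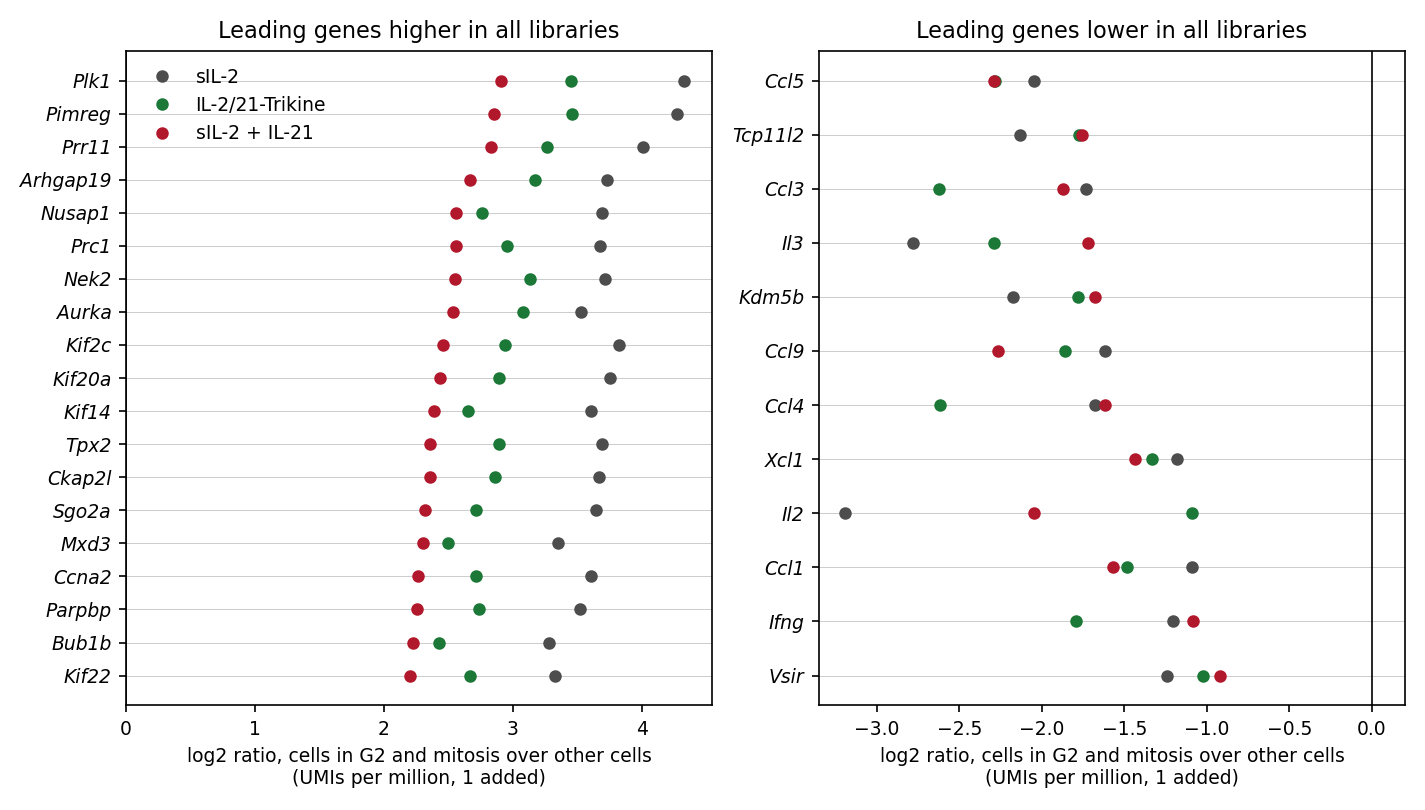
Log2 ratio of G2/M cells over other cells (CPM, 1 added) for the leading higher genes and the 12 genes with the lowest ratio, ordered by the least extreme library, score genes left out; each point is 1 library. *Plk1* leads the higher genes (4.33, 3.45 and 2.91) and *Ccl5* the lower genes (-2.04, -2.29 and -2.29). For each higher gene shown the ratio is largest in the sIL-2 library and smallest in the sIL-2 + IL-21 library.

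G2/M cells overlapped in part with cells in S phase. Of the G2/M cells, 459 (16.1%) were also among the 2845 cells highest for replication genes, which were 10.00% of all cells. By library the overlap was 15.0% against 4.44% of all cells for sIL-2 and 19.6% against 11.5% for IL-2/21-Trikine, but 13.5% against 12.6% in the sIL-2 + IL-21 library, near the share among all its cells. G2/M cells thinned to 2000 UMIs shared 21.2% with S phase cells chosen at that depth. Of 35 replication genes measured of 43, 12 were higher (background 5.97%) and none was lower (1.15%). The 12 included *Rrm2* and *Rrm1*, which make deoxynucleotides, and *Tyms*, with *Rrm2* at 158, 174 and 172 CPM against 37.0, 71.6 and 89.5 CPM. *Pcna*, the sliding clamp of DNA polymerase, had 218, 239 and 227 CPM against 148, 199 and 207 CPM, with log2 ratios of 0.55, 0.26 and 0.14. The median log2 ratio of the 35 genes was 1.01, 0.47 and 0.30, and its mean over the libraries went from 0.59 to 0.18 when other cells were weighted to the UMI distribution of the G2/M cells. Against S phase cells alone, the medians of the mitotic lists were smaller than against all other cells. They were 0.77, 0.74 and 0.67 for kinases and cyclins, 0.92, 0.79 and 0.83 for spindle genes, 0.82, 0.83 and 0.75 for cytokinesis and 0.89, 0.79 and 0.71 for the passenger complex. Checkpoint genes had 0.34, 0.42 and 0.30, chromosome genes 0.24, 0.30 and 0.27 and kinetochore genes 0.25, 0.21 and 0.19, so these 3 lists set G2/M cells little apart from S phase cells. Over cells in neither group, the kinetochore median was 2.91, 2.48 and 1.80 in S phase cells and 2.67, 2.24 and 1.80 in G2/M cells. *Plk1* differed from S phase cells by 1.96, 1.87 and 1.73, whereas *Top2a* differed by 0.46, 0.48 and 0.46.

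Genes of the G1 phase were mixed. *Ccnd2*, a D-type cyclin that responds to growth signals, was lower, at 200.5, 215 and 224 CPM against 475, 435 and 400 CPM in other cells. *Myc*, the growth regulator, had log2 ratios of -0.77, -1.06 and -0.58. Of 12 genes of G1 and S entry measured, these were the 2 lower ones, and *E2f2*, *E2f8* and *Rbl1* were the 3 higher ones. Among all genes measured, 1.15% were lower and 5.97% were higher. Among 14 inhibitors of the cycle and quiescence genes, *Cdkn2c* and *Cdkn2d*, which block the kinases of D-type cyclins, were higher, with log2 ratios of 1.74, 1.49 and 1.03 and of 1.47, 1.43 and 1.17. *Btg1*, an antiproliferative gene, was lower at 399, 515 and 330 CPM against 826, 784 and 508 CPM. *Cdkn1a*, which encodes p21, had log2 ratios of -0.91, -0.70 and -0.34, so that it missed the threshold in the sIL-2 + IL-21 library.

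Of the 12 genes with the lowest ratios, 9 encode cytokines or chemokines. *Ccl5*, a chemokine of effector and memory T cells, stood at 604 CPM in G2/M cells against 2496 CPM in other cells in the sIL-2 library, at 219 against 1071 CPM in the IL-2/21-Trikine library and at 216 against 1056 CPM in the sIL-2 + IL-21 library. *Ccl3* and *Ccl4*, inflammatory chemokines, had log2 ratios of -1.73, -2.62 and -1.87 and of -1.68, -2.62 and -1.61. *Xcl1*, which attracts cross-presenting dendritic cells, had -1.18, -1.33 and -1.43, and *Ifng* had -1.21, -1.79 and -1.09. Of 13 cytokine and chemokine genes measured of 15, 9 were lower (background 1.15%) and none was higher, with a median log2 ratio of -1.18, -1.33 and -1.43. S phase cells shared this. Over cells in neither group, the median of the 13 genes was -1.54, -1.15 and -1.30 in S phase cells and -1.25, -1.47 and -1.62 in G2/M cells, and G2/M cells differed from S phase cells by medians of 0.42, -0.16 and -0.01. The median over all other cells changed little when other cells were weighted to the depth of the G2/M cells, with a mean over libraries of -1.33 against -1.31. *Il2* and *Il3*, growth factors made by few cells, need caution. For *Il2*, 226 of the 253 UMIs in G2/M cells in the IL-2/21-Trikine library came from 1 cell, and the level was 10.0 CPM with that cell and 1.07 CPM without it, against 22.4 CPM in other cells. In the sIL-2 + IL-21 library, 118 of 188 *Il2* UMIs came from 1 cell. The lower genes outside the lists were led by *Tcp11l2* (-2.13, -1.77 and -1.75) and *Kdm5b* (-2.17, -1.78 and -1.68), a demethylase of histone H3.

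Other gene groups of T cells had smaller median ratios. Their counts stand beside 5.97% of all genes measured that were higher and 1.15% that were lower. None of 14 granzyme and cytotoxic genes measured was higher or lower in all libraries, with medians of -0.23, -0.21 and -0.29. *Gzmb* stood at 3033, 2446 and 4558 CPM in G2/M cells against 3511, 2831 and 5492 CPM in other cells. *Gzmc* had log2 ratios of 0.62, 0.53 and 0.03. Of 11 stem and memory genes measured of 16, *Ccr7*, *Bach2* and *Xcl1* were lower (background 1.15%) and none was higher. *Xcl1* is also on the cytokine list and was counted there too. *Tcf7* had -0.54, -0.15 and -0.69 and *Il7r* -0.40, -0.23 and -0.28. Of 8 inhibitory receptors and exhaustion genes, only *Cd160* was lower (-0.80, -0.55 and -0.78), and *Pdcd1* had 0.17, 0.35 and 0.03. Of 15 immediate early genes, *Egr3* and *Zfp36* were lower (background 1.15%). Of 14 genes of cytokine receptors with the common gamma chain and their signalling, *Stat5a* was lower (-0.73, -0.60 and -0.66), and *Il2ra*, the IL-2 receptor alpha chain, had -0.51, -0.34 and -0.16. None of 12 glycolysis genes, 20 genes of oxidative phosphorylation, 25 ribosomal protein genes, 10 heat shock genes, 9 p53 targets or 6 interferon-stimulated genes passed in either direction. The interferon-stimulated genes had medians of -0.82, -0.46 and -0.12, with a mean over libraries of -0.47 that was -0.06 after weighting to equal depth.

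**Figure D3:**
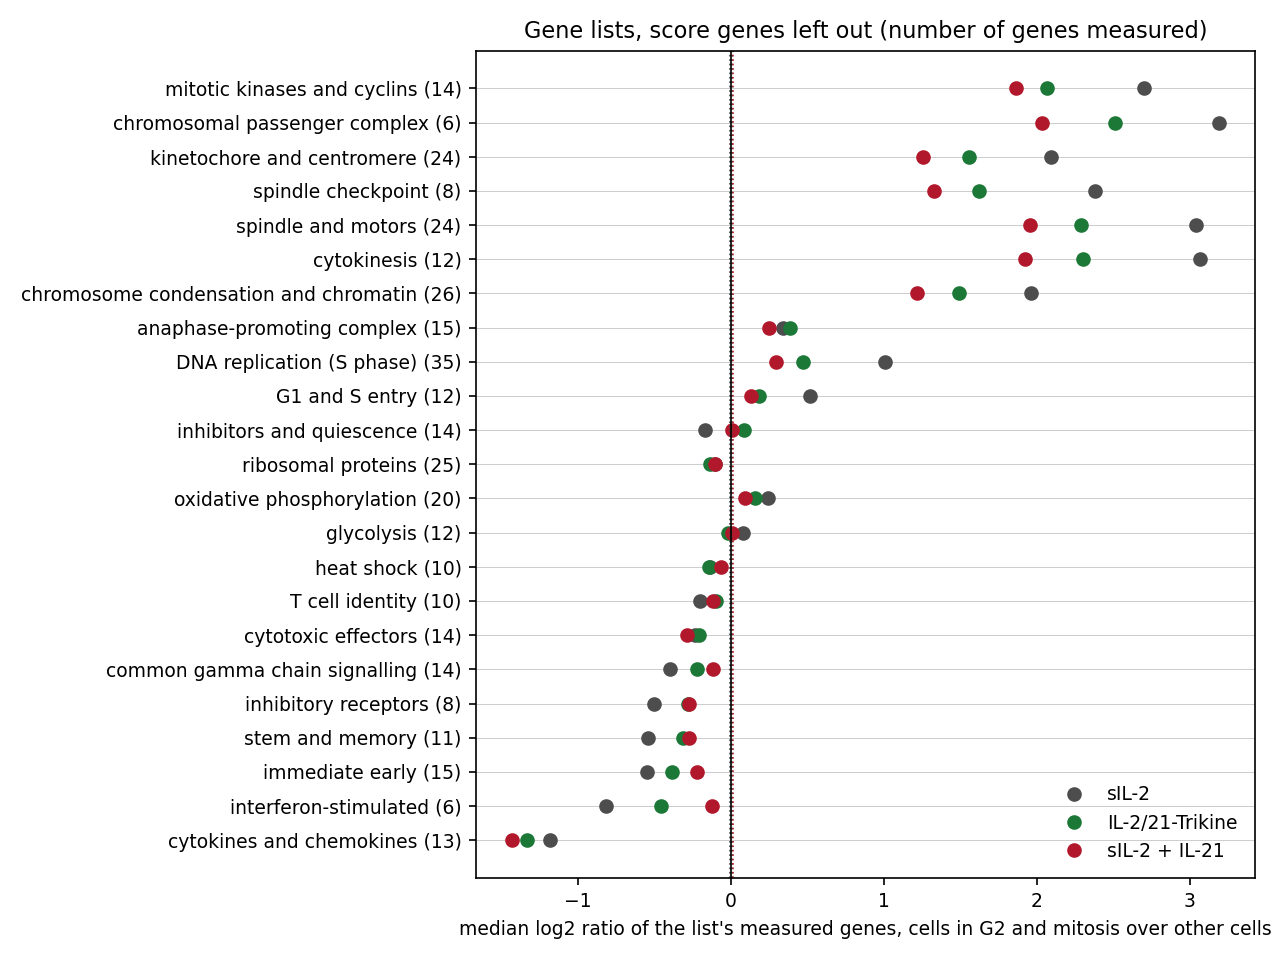
Median log2 ratio of G2/M cells over other cells for 23 gene lists, with the number of genes measured in brackets; each point is 1 library, and the dotted lines near 0 are the medians of all genes measured. The 7 lists from kinases to chromosome condensation lie between 1.22 and 3.19, replication genes between 0.30 and 1.01, and cytokines and chemokines between -1.43 and -1.18.

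The cells carried the RNA of CD8 T cells. All 10 identity genes were measured, none was higher or lower, and their summed level was 5085, 4760 and 4459 CPM in G2/M cells against 5939, 5114 and 4767 CPM in other cells. *Cd3e* stood at 611, 568 and 558 CPM and *Cd8a* at 285, 279 and 191 CPM in G2/M cells. Of 28452 cells, 21 had no UMI of *Cd3d*, *Cd3e*, *Cd3g*, *Cd8a*, *Cd8b1* or *Trac*, and 2 of these were G2/M cells. Markers of other cell types were low, other than those of NK cells, some of which, such as *Gzma*, effector CD8 T cells also make. The 14 myeloid genes summed to 13.9, 13.1 and 16.7 CPM in G2/M cells against 44.4, 36.1 and 29.8 CPM in other cells, with *Cd68* the most abundant and none at 0. The 8 melanoma genes summed to 8.97, 6.53 and 6.72 CPM against 13.96, 16.02 and 7.83 CPM, with *Gpnmb* the most abundant and none at 0. The 6 B cell genes summed to 23.2, 43.7 and 13.3 CPM in G2/M cells, above the 19.2, 29.7 and 10.8 CPM in other cells, most of it *Ighm*, with *Ms4a1* at 0. The 5 hemoglobin and red cell genes, of which *Hbb-bs* was the most abundant, summed to 1.14, 0.00 and 1.66 CPM, against 77.9, 0.19 and 0.27 CPM in other cells, and the 7 fibroblast and endothelial genes to 36.5, 38.0 and 28.7 CPM, with *Pecam1* the most abundant and *Col3a1* at 0. At least 3 different myeloid genes were found in 88 cells, 9 of them G2/M cells, and at least 3 melanoma genes in 37 cells, 1 of them a G2/M cell. For the B cell, red cell and fibroblast and endothelial genes such cells numbered 0, 3 and 2. Of 7 NK genes, *Klra8* was at 0 and *Gzma* the most abundant, and the sum was 3974, 1186 and 4236 CPM in G2/M cells against 4132, 1159 and 5095 CPM in other cells. At least 3 different NK genes were found in 1365 cells, of which 198 (14.5%) were G2/M cells and 2 had no UMI of the T cell genes named above. Among 5 genes of CD4 and regulatory T cells only *Ikzf2*, a transcription factor also made by activated CD8 T cells, reached the level needed, and it was higher, at 218, 226 and 148 CPM against 108, 144 and 101 CPM. *Malat1*, a nuclear RNA, had log2 ratios of -0.67, -0.47 and -0.27, and the mitochondrial share of UMIs was near that of other cells, with medians of 1.41%, 1.43% and 1.40% against 1.26%, 1.30% and 1.33%. A barcode is written the same way in every library, and 92 barcodes occurred in more than 1 library, and 24 of the cells that carried one of them were G2/M cells.

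Along the score, the cells of the G2/M group were not alike. When G2/M cells were split at the quartiles of their scores, *Plk1* went from 58.7 to 78.9, 95.4 and 152.5 CPM from the lowest to the highest quartile in the sIL-2 library. It went from 46.7 to 133 CPM in the IL-2/21-Trikine library and from 47.8 to 124 CPM in the sIL-2 + IL-21 library between the lowest and the highest quartile. *Cdc25b*, the phosphatase that activates Cdk1, went from 20.4 to 81.9 CPM, from 23.1 to 65.9 CPM and from 14.4 to 59.4 CPM. Replication genes ran the other way in every library: *Pcna* went from 299 to 154 CPM in the sIL-2 library, from 335 to 130 CPM in the IL-2/21-Trikine library and from 272 to 152 CPM in the sIL-2 + IL-21 library. The replication list as a whole summed to 3844, 4195 and 3670 CPM in the lowest quartile and to 2293, 2319 and 2515 CPM in the highest. Median UMIs differed little, with values of 29020 and 30081, of 20578 and 21124.5, and of 22085 and 22900 in the lowest and highest quartile. The score orders these cells, so this is a description of what goes with it.

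Among other cells, the step from none to some score UMIs already went with a lower level of *Ccl5*. In the sIL-2 library, *Ccl5* stood at 3501 CPM in cells with no score UMI, at 2108, 1675 and 1023 CPM in other cells of rising score, and at 816 to 506 CPM in the G2/M quartiles. In the sIL-2 + IL-21 library it stood at 2904 CPM in cells with no score UMI, 374 CPM in the other cells of highest score and 182 CPM in the highest G2/M quartile. The median UMI number was higher in other cells with score UMIs than in those with none, with a dip from the lowest to the middle group. It was 10739 in the cells with no score UMI of the sIL-2 library and 17097, 15587.5 and 22803 in its other cells of rising score. The sIL-2 + IL-21 library had 8446, 15871, 14834 and 21023.5 UMIs and the IL-2/21-Trikine library 8730, 14595.5, 13077.5 and 19472.5, with the same dip. Across the dip *Ccl5* went from 979 to 694 CPM in the sIL-2 + IL-21 library and from 764 to 740 CPM in the IL-2/21-Trikine library. Whether depth has a part in this was not tested.

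**Figure D4:**
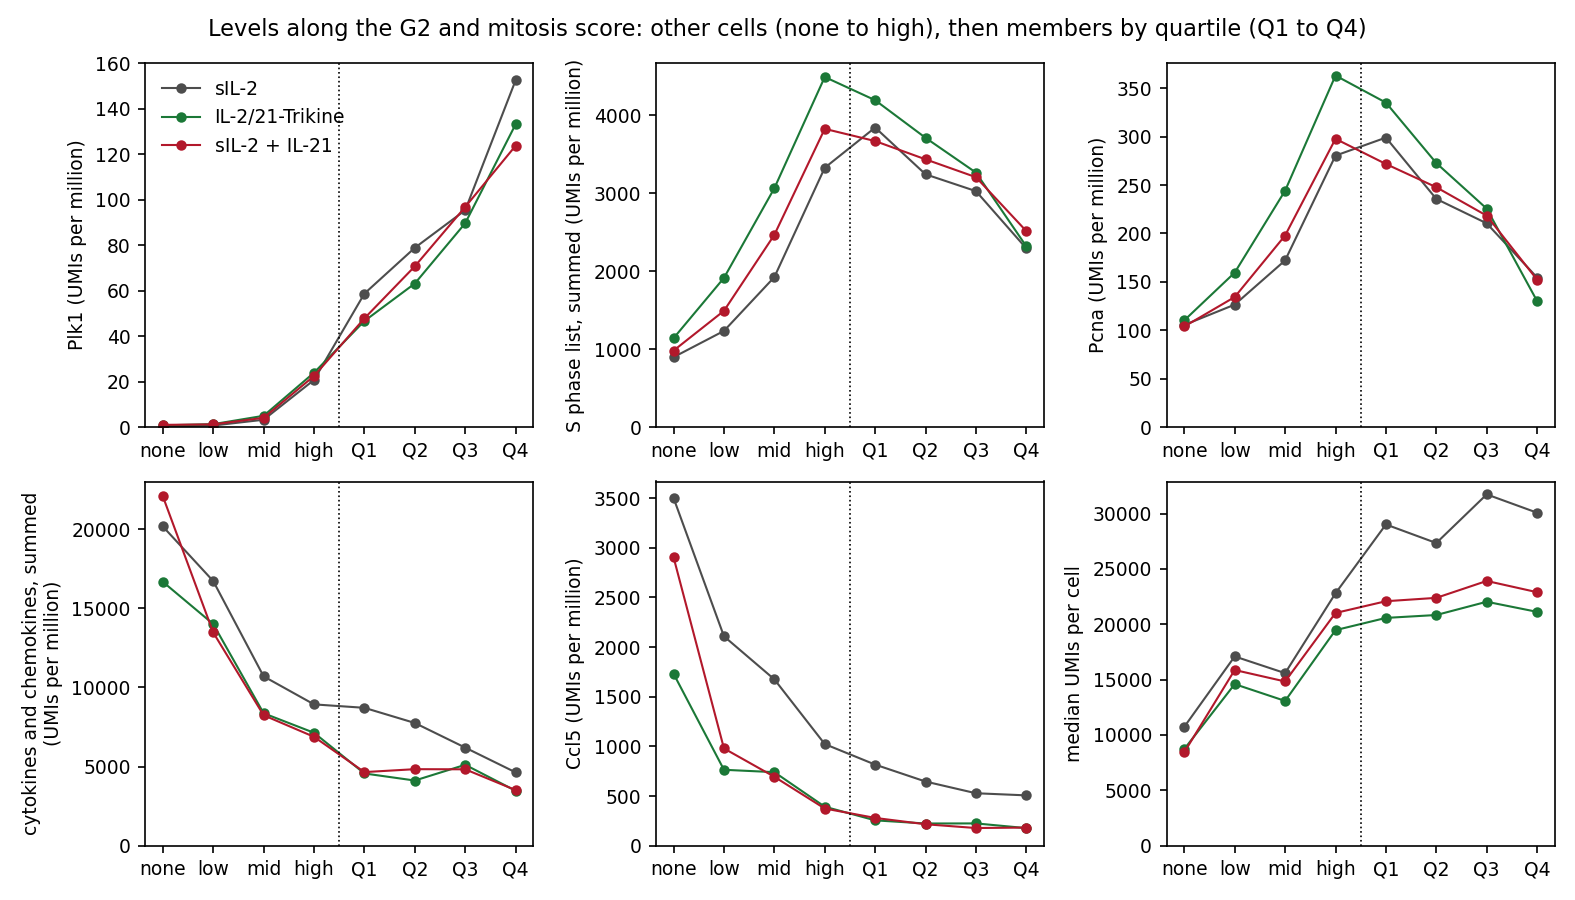
Levels along the G2/M score in each library: other cells with no score UMI, other cells of low, middle and high score, then G2/M cells by quartile (Q1 to Q4, right of the dotted line); the vertical axes give CPM, or median UMIs per cell in the last panel, and each line is 1 library. *Plk1* is highest in the last quartile (152.5, 133 and 124 CPM), *Pcna* declines from the first to the last quartile, and *Ccl5* is lowest in G2/M cells.

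Between treatments, G2/M cells were compared after passing the same lowest score in every library. Above it their median scores still differed, at 24.3, 22.4 and 21.2 UMIs per 10000, so neither small nor moderate differences in genes that go with the score are read as results. Of 5806 genes that reached 20 CPM in 1 or both libraries, 28 (0.482%) were higher and 179 (3.08%) were lower in the IL-2/21-Trikine library than in the sIL-2 library. Over the sIL-2 + IL-21 library, the IL-2/21-Trikine library had 172 (3.01%) of 5709 genes higher and 118 (2.07%) lower, and the sIL-2 library had 247 (4.24%) of 5826 genes higher and 50 (0.858%) lower. Of 25 kinetochore genes, none passed in any of these comparisons, and their medians were 0.02, 0.15 and 0.15 for the pairs in this order. In other cells the same medians were 0.78, -0.15 and -0.85. For the passenger complex they were 0.00, 0.11 and 0.12 in G2/M cells and 0.80, -0.27 and -1.04 in other cells, and for replication genes 0.13, 0.05 and -0.04 in G2/M cells and 0.74, -0.09 and -0.86 in other cells. When the top 10% were taken within each library instead, a general list of G2 and mitosis genes had medians among G2/M cells of 0.16, -0.01 and -0.17 for the pairs, against -0.05, 0.13 and 0.19 with the pooled threshold, so their signs follow the threshold. The mitotic genes past the log2 threshold of 0.5 were *Gtse1* and *Psrc1*, lower in the IL-2/21-Trikine library than in the sIL-2 library (-0.61 and -0.51), *Cdc25b* and *Psrc1*, higher in the sIL-2 library, where the median score was also higher, than in the sIL-2 + IL-21 library (0.61 and 0.51), *Ube2s*, higher in the same pair (0.63), and *H1f0*, a linker histone on the chromatin list. *H1f0* stood at 69.8 CPM in the sIL-2 library, 57.8 CPM in the IL-2/21-Trikine library and 111 CPM in the sIL-2 + IL-21 library.

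Genes of T cell function also differed between treatments. In this and the next 2 paragraphs, levels given without names start with the IL-2/21-Trikine library, followed by sIL-2 and then sIL-2 + IL-21. In the IL-2/21-Trikine library, 8 of 16 cytotoxic genes were lower than in the sIL-2 library (3.08% of all genes) and none was higher (0.482%). *Gzma* stood at 1128 CPM in G2/M cells in the IL-2/21-Trikine library, 3751 CPM in the sIL-2 library and 4043 CPM in the sIL-2 + IL-21 library. *Gzmd* had 68.7, 282 and 246 CPM and *Gzme* 49.9, 184 and 214 CPM in the same order, both granzymes of highly active killers. *Gzmg*, 2.10 CPM against 37.4 CPM in the sIL-2 library, rested on few UMIs, and 133 of the 559 in the sIL-2 library came from 1 cell. *Gzmk* was 4.23 CPM in the IL-2/21-Trikine library, 38.3 CPM in the sIL-2 library and 13.8 CPM in the sIL-2 + IL-21 library. *Fcer1g*, an adaptor of activating receptors, had 52.0, 213 and 183 CPM. In other cells the log2 ratios of IL-2/21-Trikine over sIL-2 were -1.94 for *Gzmd*, -1.89 for *Gzme* and -1.57 for *Fcer1g*. In G2/M cells they were -2.02, -1.86 and -2.01. *Gzma*, which is on the cytotoxic list too, and *Fcer1g* were the 2 genes measured of the NK list. The median of these 2 genes was -1.87 against sIL-2 and -1.82 against sIL-2 + IL-21. The NK list summed to 1186, 3974 and 4236 CPM, most of it *Gzma*. The part of NK genes in the difference was not tested. Against sIL-2 + IL-21, 8 of 15 cytotoxic genes were lower in the IL-2/21-Trikine library (2.07% of all genes). The median log2 ratio was -0.47 against sIL-2 and -0.90 against sIL-2 + IL-21 in G2/M cells, and -0.53 and -0.96 in other cells, beside -0.06 and -0.01 for all genes among G2/M cells. With each cell weighted equally, -0.90 became -0.51.

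*Tcf7*, which encodes the stemness factor TCF1, stood at 54.5 CPM in G2/M cells in the IL-2/21-Trikine library, 42.7 CPM in the sIL-2 library and 14.1 CPM in the sIL-2 + IL-21 library. The log2 ratio of IL-2/21-Trikine over sIL-2 + IL-21 was 1.88 (interval for counting error 1.79 to 2.11, without the added CPM) and 1.34 in other cells. *Ccr7*, the receptor that guides T cells to lymph nodes, was at 341, 153 and 157 CPM in the order IL-2/21-Trikine, sIL-2 and sIL-2 + IL-21. Of 11 such genes, 6 were higher in the IL-2/21-Trikine library than in the sIL-2 + IL-21 library (3.01% of all genes). They were *Tcf7*, *Ccr7*, *Bach2*, *Foxp1*, *Klf2* and *Xcl1*, the last of which is also on the cytokine list. Only *Ccr7* was higher than in the sIL-2 library (0.482%). *Tox*, a regulator of exhausted and long-lived T cells, was at 61.8, 38.7 and 16.3 CPM, and *Havcr2*, the inhibitory receptor TIM-3, at 46.7, 131 and 123 CPM. Of 11 inhibitory receptors and exhaustion genes, 1 was higher and 4 were lower than in the sIL-2 library (0.482% and 3.08% of all genes). Against sIL-2 + IL-21, 2 of 10 were higher and 2 lower (3.01% and 2.07%). The medians were -0.31 and -0.15, the latter 0.14 with genes at 5 CPM or more. *Dapl1*, found in memory-like CD8 T cells, was at 29.1, 4.48 and 3.60 CPM, and 26 of its 67 UMIs in the sIL-2 library came from 1 cell. In other cells, the log2 ratio of IL-2/21-Trikine over sIL-2 was 2.70 for *Dapl1*, against 2.46 in G2/M cells. That over sIL-2 + IL-21 was 1.73 for *Tox*, against 1.86 in G2/M cells. Single genes best known from antigen-presenting cells and B cells were also highest in the IL-2/21-Trikine library. *Cd74*, the invariant chain of MHC class II, stood at 52.7, 17.3 and 27.7 CPM, and *Ighm*, the heavy chain of immunoglobulin M, at 41.0, 21.4 and 11.6 CPM, and their part in the differences above was not tested. The myeloid list summed to 13.1, 13.9 and 16.7 CPM in this order, and the B cell list, most of it *Ighm*, to 43.7, 23.2 and 13.3 CPM. In other cells, the log2 ratio of IL-2/21-Trikine over sIL-2 was 1.81 for *Cd74*, against 1.55 in G2/M cells. That over sIL-2 + IL-21 was 1.51 for *Ighm*, against 1.74 in G2/M cells.

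Cytokine genes also differed between treatments in G2/M cells. In the IL-2/21-Trikine library, 7 of 11 were lower than in the sIL-2 library (3.08% of all genes). Against the sIL-2 + IL-21 library, 7 were lower (2.07% of all genes), while *Xcl1* and *Tnfsf8* were higher (3.01%). *Ccl4* stood at 421 CPM in G2/M cells in the IL-2/21-Trikine library, 934 CPM in the sIL-2 library and 709 CPM in the sIL-2 + IL-21 library, while in other cells the levels were 2587, 2985 and 2173 CPM. *Ifng* was at 201, 405 and 348 CPM in G2/M cells and at 697, 937 and 740 CPM in other cells. The median log2 ratio of IL-2/21-Trikine over sIL-2 + IL-21 was -0.68 in G2/M cells and -0.03 in other cells, that over sIL-2 was -0.79 and -0.42, and that of sIL-2 over sIL-2 + IL-21 was 0.40 and 0.34. The last G2/M value was 0.13 with the top 5% of cells and 0.06 without the 6% of cells with the highest doublet score. The difference between the medians of G2/M and other cells has no test, since each rests on 1 library per treatment. *Penk*, the proenkephalin gene, stood at 24.3 CPM in G2/M cells of the IL-2/21-Trikine library against 5.49 CPM in those of the sIL-2 library, while the log2 ratio of the same pair in other cells was -0.21. Of 15 immediate early genes, 7 were lower in the IL-2/21-Trikine library than in the sIL-2 library (3.08% of all genes). Their median was -0.31 in G2/M cells and -0.50 in other cells. *Egr1*, a transcription factor induced within minutes of receptor signalling, was one of the 7, and it had -1.39 against sIL-2 + IL-21, with -0.60 in other cells.

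*Isg15*, an interferon-stimulated gene, stood at 41.4 CPM in G2/M cells in the sIL-2 + IL-21 library, 78.6 CPM in the sIL-2 library and 87.7 CPM in the IL-2/21-Trikine library. Of 7 interferon-stimulated genes, 4 were higher in the IL-2/21-Trikine library than in the sIL-2 + IL-21 library (3.01% of all genes). Of 8, 4 were higher in the sIL-2 library than in the sIL-2 + IL-21 library (4.24%). The median of sIL-2 over sIL-2 + IL-21 was 0.47 in G2/M cells and 1.29 in other cells, but the G2/M value was 0.89 with the top 20% of cells and 0.90 with genes at 5 CPM or more. The metallothioneins *Mt1* and *Mt2*, which bind zinc, were higher in the sIL-2 + IL-21 library, with *Mt2* at 520 CPM against 157 CPM in the sIL-2 library and 104 CPM in the IL-2/21-Trikine library. *Batf3*, a transcription factor of activated T cells, was at 24.6, 5.15 and 1.82 CPM in that order, and *Il1r2*, a decoy receptor for interleukin 1, at 42.3, 12.8 and 8.58 CPM. Other cells differed too. Their log2 ratios of IL-2/21-Trikine over sIL-2 + IL-21 were -2.59 for *Mt2*, -2.61 for *Batf3* and -2.63 for *Il1r2*. In G2/M cells these ratios were -2.30, -3.18 and -2.18. *Cd81*, a tetraspanin, was at 29.4 CPM in the sIL-2 + IL-21 library and 4.48 CPM in the sIL-2 library. Its log2 ratio of sIL-2 over sIL-2 + IL-21 was -2.47 in G2/M cells and -1.52 in other cells. The gamma chain constant segments *Trgc4* and *Trgc2* were higher in the sIL-2 library, at 94.7 and 35.6 CPM against 23.8 and 10.6 CPM in the sIL-2 + IL-21 library, and reads of such similar segments may be shared between them. The log2 ratios of this pair were 1.95 and 1.66 in G2/M cells and 1.80 and 1.35 in other cells.

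**Figure D5:**
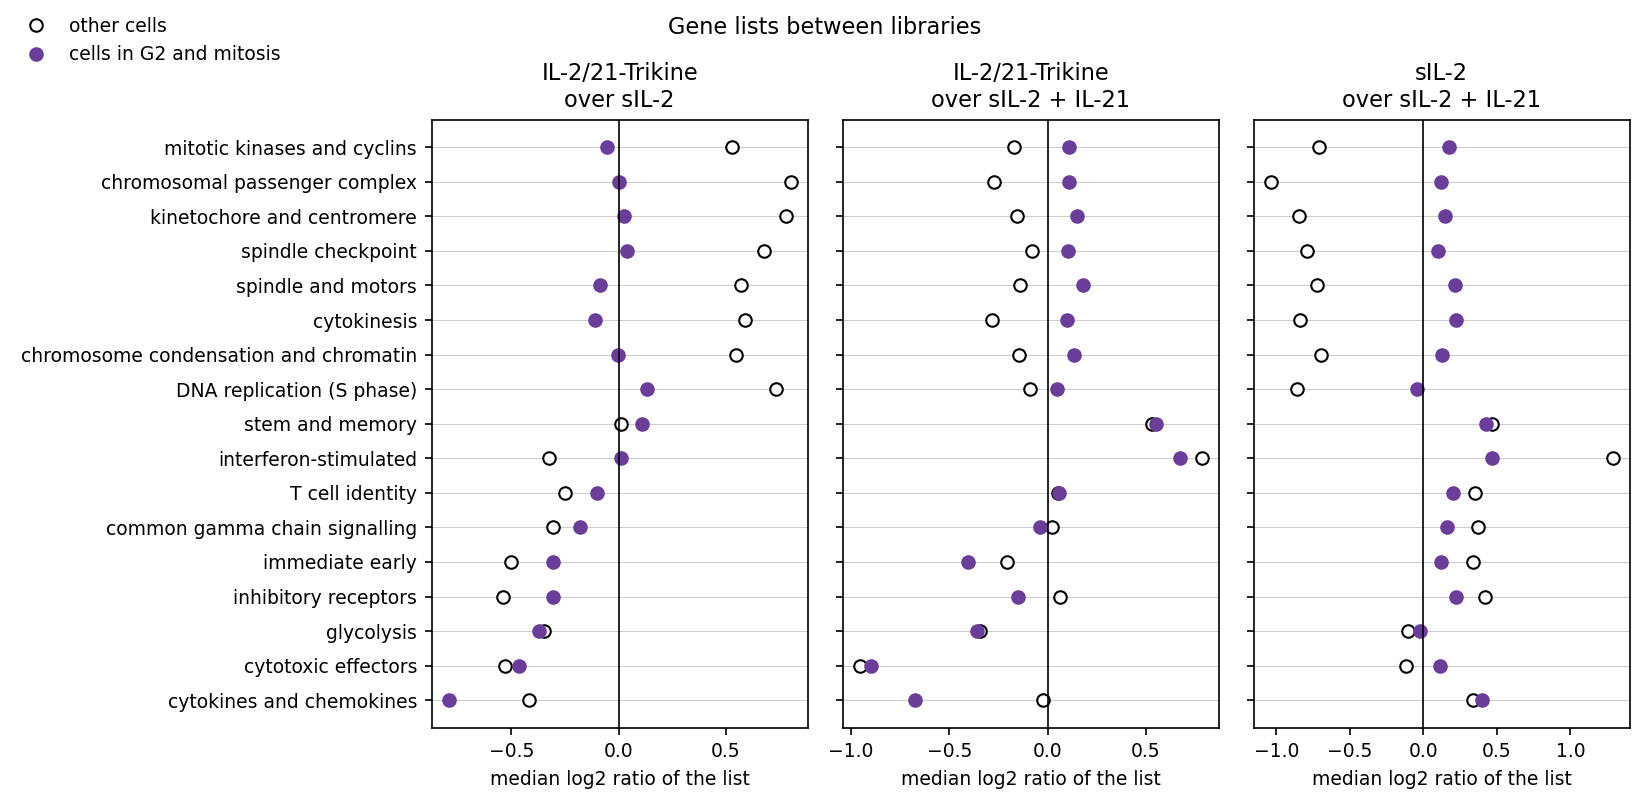
Median log2 ratio of 17 gene lists between libraries, in G2/M cells (filled) and in other cells (open), for the 3 pairs of treatments. The 7 lists of mitosis and the replication list lie between -0.11 and 0.22 in G2/M cells and between -1.04 and 0.80 in other cells, while cytotoxic genes in G2/M cells lie at -0.47, -0.90 and 0.12 from left to right.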

How the data were processed

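Libraries of sorted T cells were made with the 10x Genomics 3′ kit and sequenced on a NovaSeq 6000. Raw UMI counts were deposited by the authors as 1 matrix per treatment, from Cell Ranger (version 9.0.0 in the matrix header). The submitters' processing notes name the mm10 build, whereas the study's methods name GRCm39, so no gene coordinates were taken from the matrices. Promoters came from RefSeq tables of GRCm38.p6.

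Of 31026 deposited cells, 28452 with 2000 to 120000 UMIs and at most 20% mitochondrial UMIs were kept. These cells held 129886211 UMIs in the sIL-2 library, 165051207 UMIs in the IL-2/21-Trikine library and 167689133 UMIs in the sIL-2 + IL-21 library. UMIs were summed over cells, expressed as CPM, and compared as log2 ratios after adding 1 CPM. A gene was called higher or lower at a log2 ratio of 0.5 or -0.5, in all 3 libraries for G2/M against other cells. Mitochondrial genes and receptor variable segments were left out. With 1 library per treatment no test was made. Intervals of shares are exact binomial, those of ratios of shares are approximate, all are at 95%, and they cover counting error only. The members, gene lists and call rules were chosen with earlier results of these data known. Genes named are the 20 highest and 12 lowest over other cells, the 5 highest and lowest of each pair of libraries, the extremes of each list and a set of well-known genes, and further members of the lists were named after their values were seen. Some of these genes are not reported here.

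Alternatives changed the score, the limits on cells, the depth, the added CPM, the gene filter and the weighting of cells. Leaving out the 6% of cells of each library with the highest doublet score was chosen after seeing the data, since Scrublet called 3 cells (0.011%). On simulated data for G2/M against other cells, all 50 genes raised by 1, all 50 raised by 0.75, all 50 lowered by 1 and all 49 lowered by 0.75 on the log2 scale were called, and 0 of 4929 unchanged genes. The simulated counts were drawn from the pooled profile of other cells with counting error only, without spread between cells or libraries. Only genes at 20 CPM or more were changed, each by more than the call threshold. The result therefore checks the call rule and does not show how reliable the calls on the real cells are. Python 3.11.15, numpy 2.4.6, scipy 1.17.1, pandas 2.3.3, scanpy 1.11.5 and matplotlib 3.10.9 were used.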

Additional observations from a re-analysis of the deposited data

Results flagged for a closer look

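*Mcm2*, a subunit of the replicative helicase, had a log2 ratio of G2/M cells over other cells of 0.59 in the sIL-2 library and -0.28 in the IL-2/21-Trikine library, so the sign differed between libraries. The difference was not tested, since each value comes from 1 library. Cells outside the limits on depth and mitochondrial share also reached the score of G2/M cells. They were 12.5% of the cells above 120000 UMIs, 14.2% of the cells under 2000 UMIs and 11.7% of the cells above 20% mitochondrial UMIs. In cells under 2000 UMIs, 1 to 3 score UMIs are often enough to reach the threshold. These cells entered no comparison at the main limits. Those with at least 500 UMIs entered only the alternative with that limit.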

How the results depend on the processing

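Of 920 values recomputed under other settings, 317 of those that answer a comparison moved little and 41 moved, and of the other values, all medians of gene lists, 476 moved little and 86 moved. Of 610 list medians, 20 changed sign, and they belonged to 12 of 40 medians, whose reported values lay between -0.15 and 0.19. With the threshold set within each library, the general G2 and mitosis list had 0.16, -0.01 and -0.17 between libraries, for the pairs in the order of the report, and replication genes had 0.11 for the last pair. The interferon median of IL-2/21-Trikine over sIL-2 (0.01) ran from -0.27 to 0.18. With other cells weighted to the depth of G2/M cells, the medians of G2/M over other cells were 0.02 for T cell identity and 0.11 for cycle inhibitors (-0.14 and -0.03 unweighted), and with genes at 100 CPM or more the latter was -0.62. Between libraries, in G2/M cells, the cytotoxic median of IL-2/21-Trikine over sIL-2 + IL-21 ran from -0.995 to -0.51. In the last pair the cytokine median ran from 0.06 to 0.57 and the interferon median from 0.33 to 0.90. With a limit of 500 UMIs the share in the IL-2/21-Trikine library was 0.767 times that in the sIL-2 + IL-21 library. With the top 5% of cells the shares were 3.62%, 4.90% and 6.22% (in the order of the report) and the ratios 1.36 (IL-2/21-Trikine over sIL-2), 0.788 (over sIL-2 + IL-21) and 0.581 (the last pair). With the top 20% the shares were 11.8%, 17.8% and 29.2%, the latter ratios 0.609 and 0.405, the cytokine median -1.16 and the replication median 1.08, as means over libraries. Without the 6% of cells with the highest doublet score the cytokine median was -1.57. With 10 CPM added, 39 genes were lower in G2/M cells, 109 lower in the IL-2/21-Trikine library than in the sIL-2 library, 114 higher than in the sIL-2 + IL-21 library, and 151 higher and 33 lower in the sIL-2 library than in the sIL-2 + IL-21 library. With genes at 5 CPM or more, 131 were lower in G2/M cells, and the pairs gave 73 higher and 392 lower, 315 and 277, and 451 and 127 in the order of the report. At 100 CPM or more, 96 were higher and 19 lower in G2/M cells, and the pairs gave 5 and 53, 47 and 47, and 66 and 16. A filter changes these counts by testing fewer or more genes. With each cell weighted equally, 144 genes were lower in G2/M cells and the replication median was 0.98. With other cells weighted to the depth of G2/M cells, the replication median was 0.18 and that of a general list of G2 and mitosis genes 1.82 (2.42 unweighted). The overlap of G2/M with S phase cells was 49.1% with the top 20% of S phase cells (20% of all cells) and 21.2% after thinning. Where no construction is named, the cause was not tested. No paired analysis was possible because, for the comparisons between treatments, each has 1 library, and the ratios of G2/M over other cells were already taken within a library and carry no test, since the score chose the cells. Depth limits genes under 20 CPM, and 69 G2/M cells had fewer than 10 score UMIs.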
